A study of Mus musculus with 6 samples.

Results

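Hemidesmosomes are the plaques that fasten the basal face of an epithelial cell to its basement membrane. Their core was examined as 6 genes: the integrin chains Itga6 and Itgb4, the transmembrane collagen gene Col17a1, the plakin genes Dst and Plec, and the tetraspanin gene Cd151. The members were all probe sets whose only gene symbol in the platform annotation is one of these names, which gave 17 of 45037 non-control probe sets and 6 of 18193 genes. The expression values came from mouse breast cancer cells sorted on 2 surface proteins, CD24, a glycoprotein encoded by Cd24a, and CD29, the beta-1 integrin chain, whose gene is Itgb1. One group was positive for both proteins (CD24+CD29+) and the other was negative for both (CD24-CD29-), with 3 arrays in each, and the labels name the cells of both groups breast cancer stem cells. Both groups came from cells grown in serum-containing medium, and no strain, age, genotype or drug is given for either in the sources used here. Whether the 3 independent sample sets of the design were separate cultures or sorts is not stated, so p-values measure only how far these arrays spread, and some of that spread may be technical.

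In a hemidesmosome the integrin alpha-6 and beta-4 chains pair on the cell surface and bind laminin outside the cell. The unusually long tail of the beta-4 chain holds plectin, the product of Plec, and plectin and the epithelial form of dystonin, the product of Dst, tie the plaque to keratin filaments. Collagen XVII spans the membrane and binds the integrin, dystonin and laminin, and Cd151 travels with laminin-binding integrins in the membrane. In the mammary gland such plaques are known from the basal cell layer, which rests on the basement membrane.

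Genes of the hemidesmosome were mostly higher in CD24+CD29+ cells. By the probe set that represents each gene, Dst was higher by 2.33-fold, Itgb4 by 2.27-fold, Col17a1 by 2.11-fold, Plec by 1.55-fold and Itga6 by 1.29-fold, and each passed the threshold (limma, adjusted p at or below 0.00017, n = 3 arrays each). Cd151 was the exception: all 6 of its probe sets gave differences below 0, 3 of them fell, and the one that represents it did not pass (adjusted p = 0.11). In all, 10 of the 17 probe sets rose, 3 fell and 4 did not pass. The background is wide, since 29.2% of all probe sets rose and 34.8% fell at the adjusted threshold of 0.05. By gene, 5 of 6 rose and 1 did not pass, whereas 33.4% of all genes rose and 35.5% fell. Size sets the members further from the background: 3 of the 6 genes rose by at least 2-fold, against 3.01% of all genes. The median difference of the 6 genes was 0.85 on the log2 scale, against -0.04 over all genes. All 6 had a mean of at least 9 on the log2 scale, and of the 5202 genes that bright 52.3% rose, 3.42% by at least 2-fold, with a median difference of 0.16. The groups did not overlap for 4479 of those 5202 genes, and for 5 of the 6 members. No test of the set was made, because the members were chosen with earlier results of these data known.

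**Figure D1:**
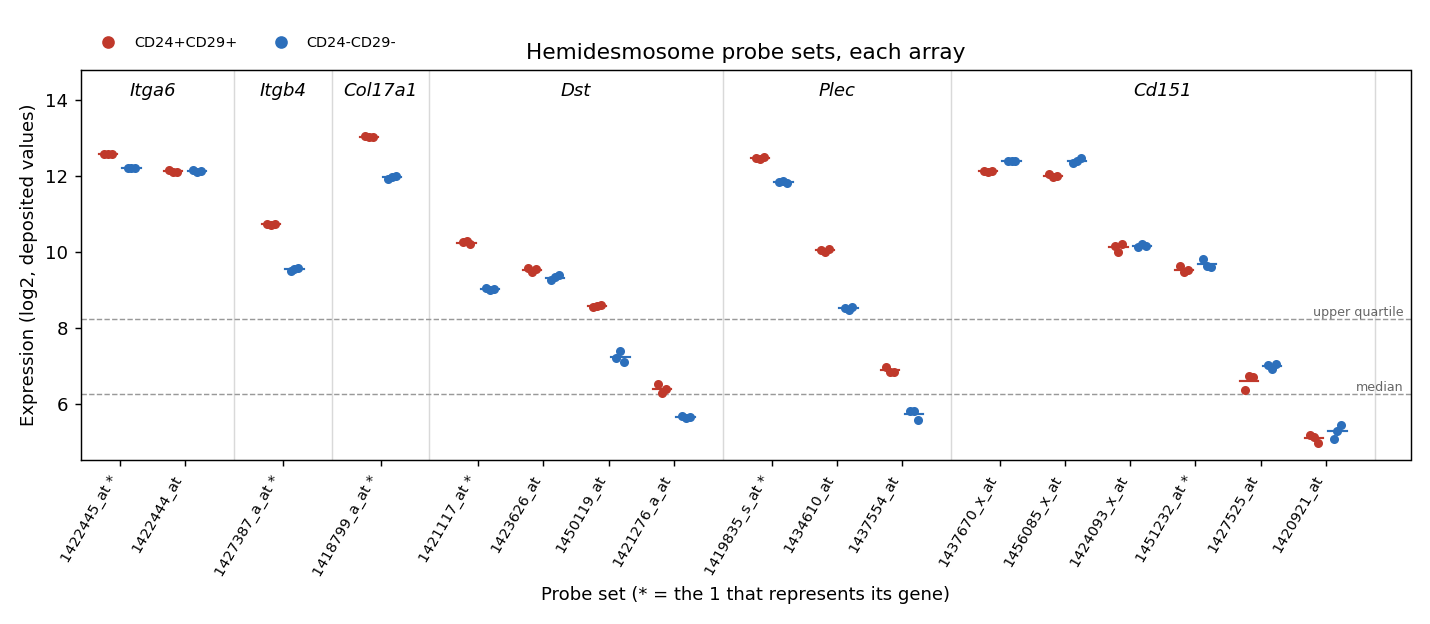
Deposited log2 values of the 17 hemidesmosome probe sets on each array, with CD24+CD29+ (red) left of CD24-CD29- (blue); short lines are group means of 3 arrays, dashed lines are the mean over arrays of the median and of the upper quartile of all probe sets, and a star marks the probe set that represents its gene. The groups separate for Itgb4, Col17a1, Dst and Plec, while the 6 probe sets of Cd151 lie level or lower in CD24+CD29+ cells. Separation is common on these arrays: the groups did not overlap on 13 of these 17 probe sets and on 30721 of all 45037.

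The values are log2 intensities, a relative scale on which 1 unit is a doubling, and they came with no detection calls. A difference is CD24+CD29+ minus CD24-CD29- on that scale, and its standard error (SE) is the fit's. Arrays of 1 group correlated at 0.997 to 0.998 over probe sets and arrays of different groups at 0.974 to 0.979, where probe sets are not independent replicates. The median of an array was 6.23 to 6.29 and its upper quartile 8.11 to 8.38. Both sort genes were higher in CD24+CD29+ cells, Itgb1 by 0.87 (SE 0.05) and Cd24a by 0.21 (SE 0.05), but Cd24a was bright in both groups, at 13.00 against 12.79, and its probe set ending in _x_at was lower, by -0.45 (SE 0.06). The RNA of Cd24a therefore does not mark the CD24-CD29- group as negative. Nor does the RNA of Itgb1, whose main probe set had a mean of 10.06 there, above the upper quartile of every array. Epcam, an epithelial adhesion gene chosen after its values were seen, was bright in both groups on its main probe set (14.11 in CD24+CD29+ cells against 14.13 in CD24-CD29- cells, not past the threshold), and its probe set ending in _x_at fell by 0.83 (limma adjusted p = 0.00015). Added poly-A control RNAs were lower on CD24+CD29+ arrays by a mean of 0.97, so a direction here is relative to the other genes on the scale of the deposit. Scaling to these controls adds 0.97 to every difference, so a fall of smaller size turns positive under it.

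Itgb4 encodes the chain that makes an integrin a hemidesmosomal one. Its single probe set, 1427387_a_at, read 10.73, 10.72 and 10.74 in CD24+CD29+ cells, against 9.49, 9.56 and 9.58 in CD24-CD29- cells. The groups lay 1.13 apart at their nearest arrays, while the SD within a group was 0.01 and 0.05. The difference was 1.19 (SE 0.05, limma adjusted p = 5.4e-07), which ranks 286 among 18193 genes ordered from the largest rise.

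Itga6 encodes the alpha-6 chain, which pairs with beta-4 in hemidesmosomes and can also pair with beta-1. It was bright in both groups, and its 2 probe sets, which the annotation ties to the same sequence record, did not give the same answer. The brighter, 1422445_at, read 12.57, 12.58 and 12.58 in CD24+CD29+ cells, against 12.21 on each array of CD24-CD29- cells, a difference of 0.37 (SE 0.05, limma adjusted p = 0.00017). The other, 1422444_at, read 12.16, 12.11 and 12.11, against 12.15, 12.12 and 12.14 in CD24-CD29- cells, and the groups overlapped (-0.01, SE 0.05, limma adjusted p = 0.88). The mean of both gave 0.18, which still passed. The rise of Itga6 therefore rests on 1 of 2 probe sets, and it was small beside that of its partner Itgb4. Within arrays, Itgb4 minus Itga6 was -1.85 ± 0.01 in CD24+CD29+ cells and -2.66 ± 0.05 in CD24-CD29- cells (SD, n = 3), an unequal change of 0.82 (SE 0.03; 2-sided exact permutation test, p = 0.1, which is the lowest that groups of 3 allow). Levels of different probe sets cannot be ranked against each other, so only the change in this quantity can be read.

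Col17a1, the gene of collagen XVII, changed almost as much as Itgb4. Its probe set 1418799_a_at read 13.05, 13.04 and 13.04 in CD24+CD29+ cells, against 11.93, 11.98 and 12.00 in CD24-CD29- cells. Every array of the first group lay at least 1.04 above every array of the second, and the difference was 1.07 (SE 0.05, limma adjusted p = 6.9e-07). The brightest probe set of an array read at least 14.9, so Col17a1 was not at the top of the scale.

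Dst encodes dystonin, a giant plakin with epithelial, neuronal and muscle forms that differ in their ends. All 4 of its probe sets rose, but by unequal amounts. The probe sets 1421117_at and 1450119_at, annotated with the same transcript, agreed on the larger change. The first read 10.25, 10.28 and 10.20 in CD24+CD29+ cells, against 9.06, 8.99 and 9.01 in CD24-CD29- cells (1.22, SE 0.05, limma adjusted p = 4.6e-07). The second read 8.54, 8.57 and 8.60, against 7.21, 7.38 and 7.10 in CD24-CD29- cells (1.34, SE 0.07). For 1423626_at the groups were only 0.09 apart at their nearest arrays, with 9.58, 9.47 and 9.54 in CD24+CD29+ cells, against 9.26, 9.33 and 9.38 in CD24-CD29- cells. Its difference of 0.21 (SE 0.06, limma adjusted p = 0.011) was 0.03 after quantile normalization and 0.01 after cyclic loess, where it no longer passed (adjusted p = 0.70 and 0.84). The dimmest, 1421276_a_at, differed by 0.74 (SE 0.07) around the median level of the arrays. The largest and smallest differences of Dst probe sets were 1.13 apart, and which form each probe set reads was not tested.

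Plec encodes plectin, the plakin that joins the beta-4 tail to keratins and that many other cell types also use. All 3 probe sets rose. The brightest, 1419835_s_at, whose suffix marks probes shared by several transcripts, read 12.49, 12.45 and 12.50 in CD24+CD29+ cells, against 11.85, 11.86 and 11.83 in CD24-CD29- cells (0.63, SE 0.05, limma adjusted p = 9.6e-06). A second, 1434610_at, showed the largest difference of all 17 probe sets: 10.04, 10.01 and 10.07 in CD24+CD29+ cells, against 8.53, 8.48 and 8.54 in CD24-CD29- cells (1.52, SE 0.05, limma adjusted p = 1.6e-07). The dim 1437554_at differed by 1.15 (SE 0.08). The probe set chosen to represent Plec thus gave the smallest change of the 3, and their mean gave 1.10 in place of 0.63. A further probe set that carries Plec and another gene's symbol was left out by the rule.

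Cd151 encodes a tetraspanin that binds laminin-binding integrins and is found with them in hemidesmosomes. Unlike the other members, it had no probe set that rose. The brightest pair, 1437670_x_at and 1456085_x_at, both fell, the first with 12.14, 12.11 and 12.13 in CD24+CD29+ cells, against 12.40, 12.39 and 12.39 in CD24-CD29- cells (-0.27, SE 0.05, limma adjusted p = 0.0011). The second read 12.05, 11.98 and 11.99, against 12.34, 12.41 and 12.47 in CD24-CD29- cells (-0.40, SE 0.06, limma adjusted p = 0.00029). Both names end in _x_at, the suffix for probes that can cross-hybridise, and for this reason neither represents the gene. The representative 1451232_at read 9.62, 9.47 and 9.51 in CD24+CD29+ cells, against 9.81, 9.64 and 9.59 in CD24-CD29- cells, and the groups overlapped (-0.15, SE 0.07, limma adjusted p = 0.11). Of the others, 1427525_at fell (-0.40, SE 0.10), 1424093_x_at stood at -0.04 (SE 0.07) and the dim 1420921_at at -0.18 (SE 0.10), the last without CD24-CD29- replicate 1 at -0.28 and past the threshold. The mean of the 6 probe sets fell by 0.24 (limma adjusted p = 0.0007), and the representative passed as lower after quantile normalization (-0.31), after cyclic loess (-0.33) and with an intensity trend in the variance (-0.15). Scaling to the poly-A controls turned all 6 differences positive (0.57 to 0.93), and 1424093_x_at moved to 0.01 with median centring and to 0.02 without CD24+CD29+ replicate 2.

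**Figure D2:**
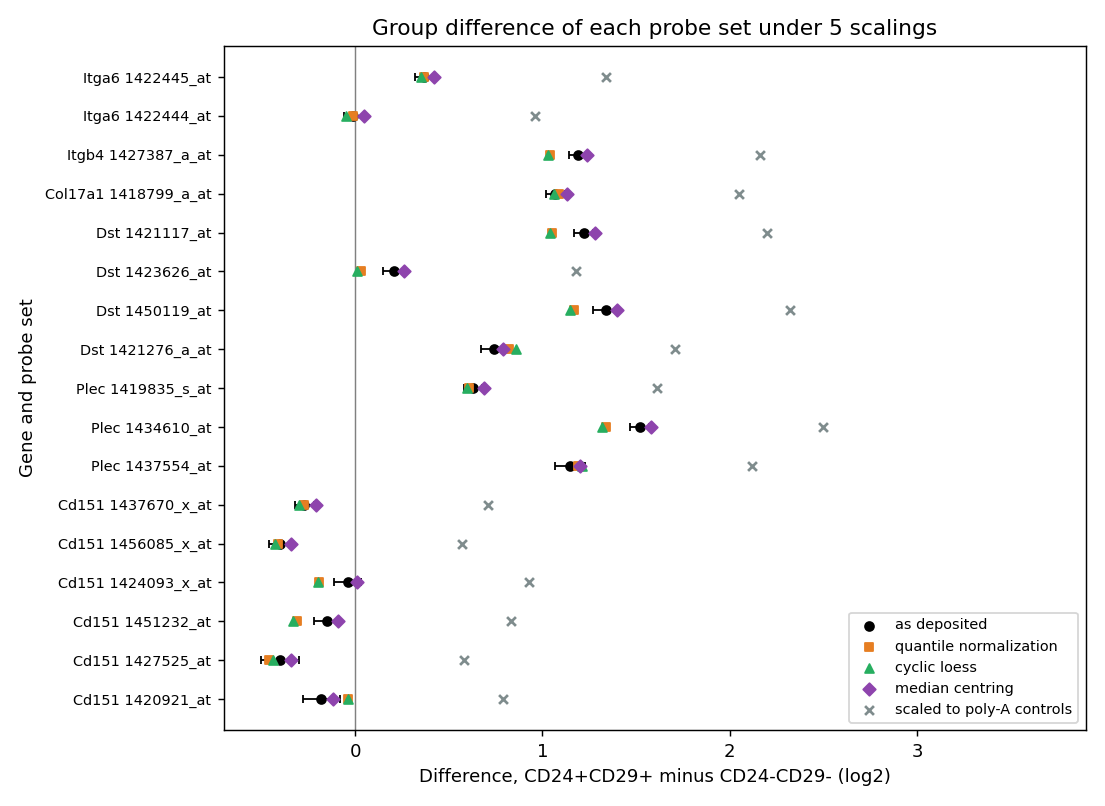
Difference between CD24+CD29+ and CD24-CD29- cells (log2, horizontal axis) for each hemidesmosome probe set (rows) as deposited, with the SE of the fit as a bar, and under 4 other scalings. Itgb4, Col17a1 and Plec stayed well above 0 under all 5, 1 Dst probe set moved to about 0 under quantile normalization and cyclic loess, and Cd151 lay above 0 on every probe set once scaled to poly-A control RNAs.

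On the deposited scale the differences of the 6 representatives ran from -0.15 for Cd151 to 1.22 for Dst. Across 15 pairs, the within-array difference between the representatives was compared between the groups by the exact permutation test, and 14 pairs gave 0.1, the smallest p possible (0.11 after Benjamini-Hochberg adjustment over the pairs, so no pair can pass 0.05). Dst and Itgb4 were the pair that did not (0.04, SE 0.05, exact p = 0.6). A p of 0.1 here means only that the groups did not overlap in that quantity. Taken singly, 13397 of 18193 genes had groups that did not overlap, and pairs of other genes were not tried. The test therefore cannot decide whether the members changed unequally. The widest gap was between Dst and Cd151, at 1.37 (SE 0.07), and that between Itgb4 and Cd151 was 1.33 (SE 0.11). Itgb4 and Col17a1 differed by 0.11 (SE 0.01), a gap that turned to -0.05 after quantile normalization. Plec rose by 0.26 more than Itga6 (SE 0.02) and by 0.44 less than Col17a1, but averaged over all probe sets of each gene Col17a1 minus Plec was -0.03. The order among Dst, Itgb4, Col17a1 and Plec thus depends on the probe set and the scaling, while Itga6 and Cd151 stayed the smallest in each setting tried for the pairs.

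**Figure D3:**
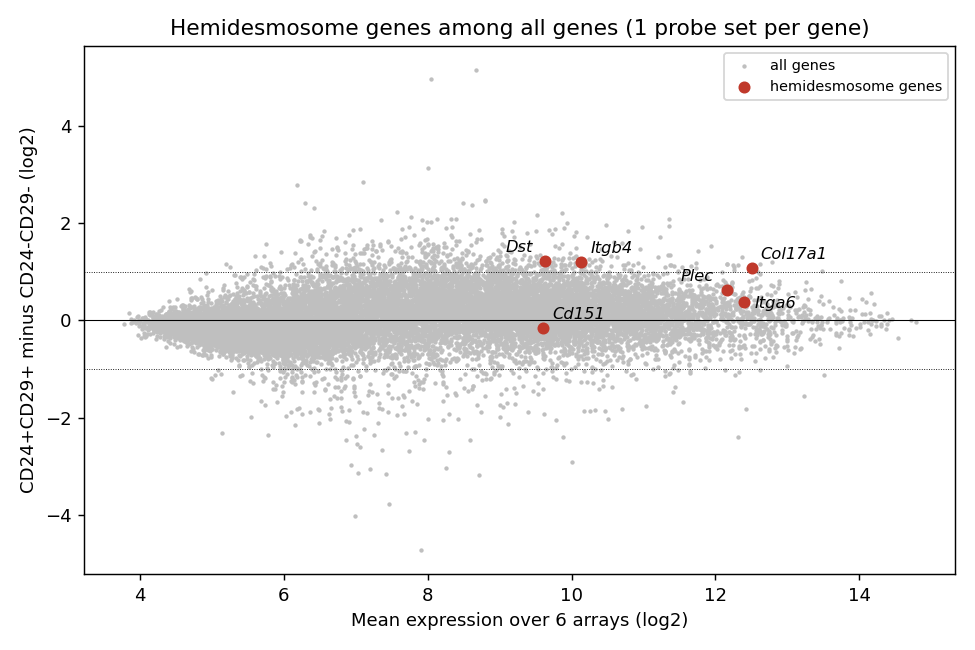
Mean log2 level over the 6 arrays (horizontal axis) against the difference CD24+CD29+ minus CD24-CD29- (vertical axis) for 1 probe set of each of 18193 genes (grey), with the 6 hemidesmosome genes in red and dotted lines at 2-fold. Dst, Itgb4 and Col17a1 lie above the upper line, Plec and Itga6 between it and 0, and Cd151 just under 0.

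The regions before the RefSeq starts of Col17a1 and Dst, which rose, and of Cd151, which did not, are printed from GRCm38.p6, 250 bases each, 5′ to 3′ on the gene's strand. The table used held windows for 3 of the 6 genes. Dst is shown with both of its listed starts, because its probe sets changed by unequal amounts. Capitals mark matches, on either strand, to 4 motifs: the TATA box TATAAA, the AP-1 motif TGANTCA, the Sp and Klf motif GGGCGG and the AP-2 motif GCCNNNGGC.
Col17a1, chr19:47692043-47692292, minus strand: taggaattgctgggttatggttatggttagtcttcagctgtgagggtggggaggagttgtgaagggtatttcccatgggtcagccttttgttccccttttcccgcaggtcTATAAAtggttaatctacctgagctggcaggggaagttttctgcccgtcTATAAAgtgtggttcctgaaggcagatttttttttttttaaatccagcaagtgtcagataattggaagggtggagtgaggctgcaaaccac
Dst, start nearer the 5′ end of the gene, chr1:34011345-34011594, plus strand: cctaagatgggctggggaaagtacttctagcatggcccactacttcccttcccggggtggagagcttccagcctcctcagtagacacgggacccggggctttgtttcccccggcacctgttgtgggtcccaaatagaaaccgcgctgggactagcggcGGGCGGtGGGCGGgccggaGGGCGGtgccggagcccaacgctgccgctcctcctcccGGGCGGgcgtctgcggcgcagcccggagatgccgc
Dst, start nearer the 3′ end of the gene, chr1:34160010-34160259, plus strand: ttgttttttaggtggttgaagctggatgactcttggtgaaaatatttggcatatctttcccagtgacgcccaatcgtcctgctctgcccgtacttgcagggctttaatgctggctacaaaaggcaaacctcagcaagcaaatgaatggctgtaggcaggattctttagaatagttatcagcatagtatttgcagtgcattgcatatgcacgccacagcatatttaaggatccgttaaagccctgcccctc
Cd151, first listed start, chr7:141467112-141467361, plus strand: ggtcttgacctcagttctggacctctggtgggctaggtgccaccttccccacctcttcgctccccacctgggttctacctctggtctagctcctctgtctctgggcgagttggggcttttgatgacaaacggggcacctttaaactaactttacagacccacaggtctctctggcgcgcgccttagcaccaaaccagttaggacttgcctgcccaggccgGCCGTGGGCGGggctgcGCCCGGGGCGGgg

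Col17a1 held 2 TATA box matches, beginning 140 and 91 bases before the start, and 12.4% of 32851 such windows of all genes held at least 1. The Dst window nearer the 5′ end held 4 matches to the Sp and Klf motif, found in 32.7% of windows, and had a GC content of 68.8%, against 45.2% for the other Dst start and a median of 52.4% over all windows. The Dst window nearer the 3′ end held none of the 4 motifs. The printed Cd151 window held 2 overlapping pairs of Sp and Klf and AP-2 matches within 30 bases of the start, and AP-2 letters are in 13.7% of windows. A second listed start of Cd151, not printed, had 0 Sp and Klf matches and 1 AP-2 match, beginning 211 bases before it. The AP-1 letters, in 6.75% of windows, were in none of the 4 printed windows. A match is a run of letters and not a binding site, and the arrays do not show which start was used.

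The laminin that the alpha-6 beta-4 integrin binds most tightly, and the anchoring fibril beneath it, were read next, since both hold the plaque from outside. All 3 measured genes of this list rose. Lama3, its alpha chain, read 11.02, 10.93 and 10.96 in CD24+CD29+ cells, against 8.80, 8.77 and 8.71 in CD24-CD29- cells. That is a 4.62-fold rise (2.21, SE 0.05, limma adjusted p = 5.7e-08), and a dim second probe set went the other way (-0.29). Lamb3, the beta chain, rose by 2.02-fold, with 11.99, 11.96 and 12.01 in CD24+CD29+ cells, against 10.95, 10.98 and 10.98 in CD24-CD29- cells. Col7a1, the collagen of anchoring fibrils, rose by 1.98-fold. Among 20 other laminin chain and basement membrane genes there were 11 rises, 5 falls and 4 genes not past the threshold, and the median was 0.31. Lama1 (1.64), Col4a2 (0.92) and Col4a1 (0.71) rose and Lamb2 (-0.80) fell, each in log2 units.

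Other receptors for laminin were compared, because alpha-6 and Cd151 are shared with them. Of 7 genes, 5 rose, 1 fell and 1 did not pass. The largest rise was that of Itga7, an alpha chain that pairs with beta-1, by 1.75 (SE 0.07), with 7.24 in CD24+CD29+ cells against 5.49 in CD24-CD29- cells. The syndecan gene Sdc1 rose by 1.13 and Itgb1, the CD29 chain on which the cells were sorted, by 0.87, so both beta partners of alpha-6 were higher on their main probe sets. The dimmest Itgb1 probe set fell (-0.17, SE 0.06), and the rise of Itgb1 cannot be told apart from the sort. Itga3, the main alpha partner of Cd151 with beta-1, was higher by 0.39 (SE 0.07) on its main probe set and by 0.42 on a dimmer one, and lower, at -0.38, on the dimmest. Other tetraspanins, 16 genes measured, had 6 rises, 7 falls and 3 not past the threshold (median 0.06), so tetraspanins as a list moved in both directions. Tspan8 (0.85) and Tspan14 (0.68) were the largest rises, and Tspan15 (-0.66) and Cd37 (-0.65) the largest falls in log2 units.

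On the inner side, all 5 other plakin genes rose, as did Dst and Plec. Macf1, the closest relative of Dst, rose by 0.86 (SE 0.06), the desmosomal plakin gene Dsp by 0.70 (SE 0.05), the periplakin gene Ppl by 0.59 (SE 0.05), the envoplakin gene Evpl by 0.27 (SE 0.05) and the epiplakin gene Eppk1 by 0.14 (SE 0.05, limma adjusted p = 0.043). None reached 2-fold, and after quantile normalization or cyclic loess 3 of the 5 remained past the threshold as higher. Of 11 keratin genes, 8 rose and 3 fell, with a median of 0.65. The largest rises were those of Krt6b (2.45), Krt16 (1.52), Krt17 (1.04) and Krt6a (1.01) in log2 units. Krt5 and Krt14, the keratin pair of basal cells, rose by 0.65 and 0.99. Those that fell were the simple epithelial keratins Krt8 (-0.17), Krt18 (-0.42) and Krt19 (-0.95), but Krt7, also a simple epithelial keratin, rose by 0.38 (SE 0.06). These 5 and Krt7 were chosen after their values were seen. Desmosomes, the cell-to-cell counterpart anchored to the same filaments, had 7 rises and 3 falls of 10 measured genes. Pkp1 (1.16), Dsc3 (1.00) and Perp (0.86) rose and Dsg1a (-1.02) fell in log2 units.

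**Figure D4:**
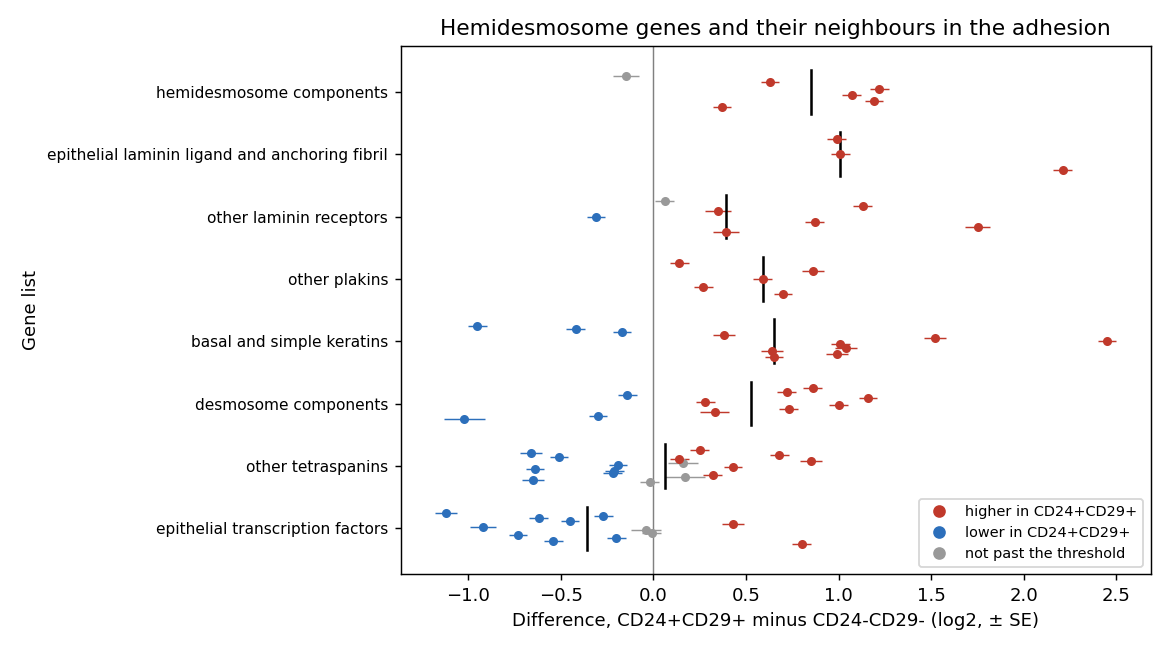
Difference CD24+CD29+ minus CD24-CD29- (log2, horizontal axis; bars are SE of the fit) of each measured gene in 8 lists (rows), 1 probe set per gene; red points passed as higher, blue as lower, grey did not pass, and black lines are list medians. The hemidesmosome list has a median of 0.85, the other plakins 0.59, the keratins 0.65 and the other tetraspanins 0.06, and the epithelial transcription factors lie mostly below 0, with a median of -0.36.

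Genes that act on the plaque were mixed. The alpha-6 beta-4 integrin signals together with growth factor receptors, and 18 genes of that signalling were measured. Their median was 0.29, with 11 higher, 4 lower and 3 not past the threshold. Egfr (1.29), Irs1 (1.10) and the kinase gene Prkcd (0.72) rose in log2 units, though a second probe set of Prkcd did not pass (-0.15). Irs2, the second insulin receptor substrate, fell (9.14 in CD24+CD29+ cells against 10.14 in CD24-CD29- cells). After quantile normalization or cyclic loess 7 of these genes passed as lower. Of 3 sheddases that can release the ectodomain of collagen XVII, Adam17 (0.99) and Adam9 (0.46) rose and Adam10, named after its value was seen, did not pass (0.02). Of 12 epithelial transcription factors, 2 rose, 8 fell and 2 did not pass. Trp63, the regulator of basal epithelium known to act on several adhesion genes, rose by 0.80 (SE 0.05), whereas Tfap2c (-1.12), Ovol1 (-0.92) and Grhl1 (-0.73) fell. With the poly-A controls as the scale, 10 of the 12 passed as higher. Focal adhesions, the actin-linked adhesions that also use integrins, had 6 rises and 2 falls of 9 measured genes, led by Ilk (0.70), Lims1 (0.66), Zyx (0.61) and Tln1 (0.57), where Tln1 has 1 probe set that passed as lower.

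The genes closest to Itgb4 in profile were found by the root mean square distance over the 6 arrays after each gene was centred. Cyb5r1 was nearest (0.019 log2 units), followed by the cell cycle factor gene E2f8 (0.022), Prag1 (0.024), Fndc1 (0.026) and Plch2 (0.030). They differed between the groups by 1.15 to 1.21. Of the other members, Col17a1 and Dst each stood at 0.056, with 55 and 56 genes nearer. With 6 arrays in 2 groups this measure reads little more than the size of the difference.

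Lineage markers moved on the same arrays. Basal and myoepithelial genes (15) had 12 rises, 2 falls and a median of 0.65, and the log2 of their summed values was 15.13 to 15.19 in CD24+CD29+ cells, against 14.28 to 14.31 in CD24-CD29- cells. The largest changes were the rises of Cav1 (2.09), Lgr5 (1.71), Egfr (1.29) and Krt17 (1.04). Of the genes of the contractile myoepithelial cell, chosen after their values were seen, Mylk (-0.84) and Oxtr (-0.26) were the 2 that fell, Cnn1 (0.39) and Acta2 (0.13) rose, and Myh11 (-0.17) did not pass. A dimmer probe set of Mylk rose by 0.64, and its dimmest fell (-0.42). The second probe set of Myh11 was dim and fell, at 5.04 in CD24+CD29+ cells against 5.89 in CD24-CD29- cells (-0.85, limma adjusted p = 1.3e-05). Luminal genes (15) had 3 rises, 10 falls, a median of -0.26 and a summed level of 15.79 to 15.83 in CD24+CD29+ cells, against 16.15 to 16.17 in CD24-CD29- cells, and with the poly-A controls as the scale 11 of them passed as higher. Their largest changes were those of Csn3 (-1.12), Esr1 (1.11), Kit (-0.99) and Elf5 (-0.97). Besides Esr1, the genes that rose were Pgr (0.86) and Foxa1 (0.73), both named after their values were seen. Esr1 and Pgr each have 1 dim probe set that fell. Fibroblast markers, which an epithelial culture could also hold, had 10 rises and 2 genes not past the threshold of 12, with a summed level of 13.70 to 13.75 in CD24+CD29+ cells, against 12.87 to 12.89 in CD24-CD29- cells. Col1a2 (2.02), Col3a1 (1.73), Lum (1.48) and Dcn (1.15) led them. The part of either lineage in the hemidesmosome result was not tested, and fewer cells of a type and less RNA per cell cannot be told apart in these bulk samples. None of 10 endothelial and none of 9 leukocyte markers measured had a group mean above the upper quartile of the arrays in either group. Of the endothelial markers Cdh5 (0.29) and Vwf (0.29) rose, Tek (-0.20) fell and 7 did not pass. Of the leukocyte markers 5 fell, by the most Csf1r (-0.88), Cd3e (-0.44) and Tyrobp (-0.39), and 4 did not pass. The dimmest 40% of all probe sets held 7 of the 10 endothelial markers, with the 3 that passed among them, and 6 of the 9 leukocyte markers, and without those probe sets 3 leukocyte markers fell. Of the 8 neuronal and Schwann cell markers, which bear on the neuronal form of dystonin, Tubb3 rose (1.10), 5 fell and 2 did not pass. Tubb3 was dim, at 5.80 in CD24+CD29+ cells against 4.71 in CD24-CD29- cells. The dimmest 40% of probe sets held 4 of these 8 markers, Tubb3 among them, and without those probe sets 0 rose and 4 fell. Map2 and Sox10, the second chosen after its values were seen, were above the upper quartile in both groups. Skeletal muscle markers had 6 falls and 2 genes not past the threshold, but none of the 8 was above the upper quartile in either group, and 7 were among the dimmest 40% of probe sets, without which 1 fell.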

How the data were processed

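RNA of sorted mouse cells was measured on 6 Affymetrix Mouse430_2 arrays. The deposited values are log2 intensities, made with RMA and Partek per the submitters' processing notes, with versions, settings and genome build not given in the sources used here. RMA background compresses differences of dim probe sets. Of 45101 probe sets, 64 were controls. Probe sets were named by the platform annotation, which can be old, where it gave 1 symbol (34945), and a gene was represented by its brightest such probe set, not ending in _x_at where another existed. The promoters are credited to RefSeq.

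Group differences were fitted by limma (version 3.58.1, R version 4.3.3; lmFit, then eBayes, without a block) over 45037 non-control probe sets, with Benjamini-Hochberg adjustment over all of them and a threshold of 0.05. The number of arrays limits the precision, with a median SE of 0.07. Data with this spread were simulated over 45037 probe sets, of which 50 were changed at each size. There, 10% of changes of 0.25, 58% of 0.5, 96% of 1 and 100% of 2 were recovered, with 2 false calls of 134. In the data far more probe sets passed, 13135 higher and 15651 lower, so smaller differences can pass the adjusted threshold there. These shares therefore do not give the detection limit of the data. Deviations from the group mean correlated at 0.199, -0.038 and 0.051 between arrays of the same replicate number. Between arrays of different numbers they correlated at -0.218 to 0.178, so this check does not settle whether the numbers pair the arrays.

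Named genes were all member probe sets, all measured genes of the laminin ligand and plakin lists, Itga3, Itgb1 and Cd24a, at most the 4 largest differences past the threshold of each other list, and the 5 profiles nearest to Itgb4. Adam10, Epcam, Sox10, Krt7, Pgr, Foxa1, 5 other keratins and 5 contractile genes were added after their values were seen. The members and lists were chosen with earlier results of these data known. Alternatives were 4 other scalings, a filter on dim probe sets, other choices of features and of variance model, the replicate number as a block, and leaving out each array.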

Additional observations from a re-analysis of the deposited data

How the results depend on the processing

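Over 17 other settings, 249 of 266 values of member probe sets kept their call as higher, lower or not past the threshold. Of these, 4 that passed in neither setting changed sign: Itga6 1422444_at and Cd151 1424093_x_at, each under median centring and without CD24+CD29+ replicate 2. In these counts the mean of the probe sets of a gene stands under its representative. Itgb4 ran from 1.03 to 2.16, Col17a1 from 1.05 to 2.05 and the representative of Plec from 0.60 to 1.61. The representative of Dst ran from 1.04 to 2.20 and that of Itga6 from 0.35 to 1.34, while the mean of probe sets gave 0.88 and 0.18. These 5 genes were past the threshold in every setting. The number of member probe sets that fell was 3, and it was 5 after quantile normalization and 5 after cyclic loess. The number of member genes that fell was 0, and it was 1, Cd151, under quantile normalization, cyclic loess, the mean of probe sets, the intensity trend and the trend with robust estimation. Scaling to the poly-A controls adds the same amount to every difference. It gave 17 member probe sets higher and 0 lower, and 44122 higher and 371 lower of all probe sets. Under it Itga6 1422444_at reversed to 0.96, and Cd151 to 0.71 (1437670_x_at), 0.57 (1456085_x_at), 0.93 (1424093_x_at), 0.83 (1451232_at), 0.58 (1427525_at) and 0.79 (1420921_at). Of 30 pair values, 6 reversed: with the mean of probe sets Dst minus Itgb4 was -0.31, Dst minus Col17a1 -0.20, Dst minus Plec -0.22 and Col17a1 minus Plec -0.03, and after quantile normalization Dst minus Col17a1 was -0.04 and Itgb4 minus Col17a1 -0.05. Apart from the scaling itself the cause was not tested. Leaving out 1 array gave 10 member probe sets higher each time and 3 to 4 lower, with 5 and 0 by gene, and 12001 to 12640 higher and 13720 to 14931 lower of all probe sets. With the replicate block, 10 member probe sets rose and 3 fell, and it changed no call of a member; all probe sets gave 13138 higher and 15816 lower. Of 612 counts of the other lists, 553 stayed within 1.5 times, and 23 of the 59 that moved did so under scaling to the poly-A controls. Dim probe sets, such as Cd151 1420921_at, are limited by the background in their values.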
